A study of Homo sapiens with 6 samples.

Results

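A set of 17 unnamed long noncoding transcripts, of 14336 symbols of this kind and 36601 genes in the matrices, stood far higher in neuroblastoma cells treated with TSA than in solvent controls. A symbol counted as unnamed when it was only a clone name (AC, AL, AP, AF or AJ followed by digits) or a LINC number. The members were chosen by their CPM in the TSA and DMSO libraries: a transcript was a member when it reached at least 5 CPM in both TSA libraries and both of these were at least 4 times the highest DMSO library. CPM (counts per 1000000) is a gene's number of unique molecular identifiers (UMIs, the tags that mark single captured RNA molecules) per 1000000 UMIs in the cells of a library. Clone names were carried by 12 members and LINC numbers by 5. The higher level under TSA is therefore how the members were chosen. It is given as a description, with no test.

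The cell line throughout was SK-N-BE(2)-C, derived from a human neuroblastoma and carrying amplified MYCN. Seq-Well S3, in which cells settle singly with barcoded beads into small wells, was the method. The libraries fell into 3 groups of 2: DMSO (the solvent), TSA (the usual abbreviation of trichostatin A, which blocks the catalytic site of histone deacetylases) and E6R. By the series title, an HDAC complex inhibitor that is not enzymatic was studied. Which compound E6R is, its dose and the length of each treatment are not stated in the labels. The labels name no genetic change in any group, and nothing in them says that replicates came from separate cultures, so p-values measure only the spread between these libraries, which may be technical.

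Long noncoding RNAs are transcripts, usually spliced and often polyadenylated, that encode no known protein. Many are made at low level from promoters near, opposite to or within protein-coding genes, and for most of those that bear only a clone name no function is known. Histone deacetylases remove acetyl groups from histone tails, and their inhibition is known to raise acetylation and to allow transcription from many sites that are otherwise nearly silent.

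Between 1861 and 3946 cells were kept per library, with 4206366 to 26180262 UMIs in these cells and medians of 1054 to 1880 UMIs per cell. Pairs of libraries shared 11 to 58 cell barcodes, or 0.351% to 2.11% of the smaller library. All 10 adrenergic neuroblastoma markers were detected in every library (summed level 2586 to 3683 CPM), as were all 8 mesenchymal markers. The mesenchymal markers summed to 1356 and 842 CPM under DMSO, 3049 and 1902 CPM under TSA and 2105 and 1363 CPM under E6R, and their part in the members' levels was not tested. The 6 blood and immune markers summed to 0.306 to 3.90 CPM and PTPRC, the pan-leukocyte marker, had 18 UMIs over the 6 libraries together. The 4 epithelial markers summed to 2.52 to 23.8 CPM, and the 3 endothelial markers to 55.4 and 4.38 CPM under DMSO, 10.6 and 3.90 CPM under TSA and 65.8 and 1.91 CPM under E6R. TSA replicate 1 stood apart: 45.4% of its cells had under 4% mitochondrial UMIs, against 2.55% in TSA replicate 2, 22.2% and 16.6% under DMSO and 84.2% and 77.9% under E6R. For both ranges of its cells, levels are given below for AL627171.2, AL606500.1, the other members summed, and those that differed between the ranges. Shares of cells with a UMI were not split in this way.

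Seq-Well beads capture RNA by its poly(A) tail, so the 3′ end of a transcript is the stretch mainly sampled. Of the 17 members, 12 were found by identifier in GENCODE 29 on GRCh38, and 5 (AL606500.1, AC116317.1, AC108477.2, AC055839.2 and AC010378.2) are given by name only. The last 60 bases of the transcript that reaches furthest 3′ follow for 6 members whose values are described in detail, 5′ to 3′ on the transcribed strand, with the polyadenylation hexamer AATAAA in capitals where it occurs.
AL627171.2, chr14:49861176-49861235, minus strand: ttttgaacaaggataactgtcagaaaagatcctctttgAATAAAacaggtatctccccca
AL356804.1, chr14:70291800-70291859, plus strand: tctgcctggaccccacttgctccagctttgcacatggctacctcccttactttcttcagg
LINC00624, chr1:147258885-147258944, minus strand: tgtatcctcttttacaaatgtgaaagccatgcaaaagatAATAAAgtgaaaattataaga
LINC02158, chr3:42773576-42773635, plus strand: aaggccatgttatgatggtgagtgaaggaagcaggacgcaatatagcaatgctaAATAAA
AC008736.1, chr19:32687089-32687148, minus strand: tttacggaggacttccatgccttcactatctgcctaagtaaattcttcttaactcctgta
AC027237.3, chr15:69396904-69396963, minus strand: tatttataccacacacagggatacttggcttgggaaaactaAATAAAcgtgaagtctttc
The hexamer lay within the last 50 bases of 7 of the 12 annotated members, and in 30.5% of all 26865 GENCODE transcripts of the same biotypes. The ends of AL356804.1, AC008736.1, AC104534.1, LINC01511 and AL033523.1 did not hold these letters in that window. The member count used only the transcript that reaches furthest 3′, while the 30.5% covers every transcript, expressed or not. The count and the share are therefore not matched. Of the 12, GENCODE classed 7 as lincRNA, 4 as antisense and 1 as a processed transcript. They lay on 9 chromosomes, no pair of them within 500000 bases of each other, and the longest spliced form ranged from 448 to 3372 bases.

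AL627171.2 (ENSG00000282885) was by far the most abundant member. It had 235 and 338 CPM in the DMSO libraries, 3062 and 5323 CPM under TSA, and 215 and 487 CPM under E6R. Both TSA libraries lay far above the other 4, and the E6R libraries fell on either side of the DMSO libraries. Summed over libraries, the ratio of TSA to DMSO was 14.3 (95% interval 13.8 to 14.9, from 114637 and 2607 UMIs). Intervals on ratios and shares here are exact and cover counting error only. The annotated gene spans chr14:49861176-49864326 on the minus strand, with 3 or 4 exons, and does not overlap a protein-coding gene. The 300-base RN7SL2 gene, which encodes the abundant RNA of the signal recognition particle, lies inside that span at chr14:49862550-49862849 on the same strand. It overlaps 0 exon bases of AL627171.2, and the longest run of letters shared with its transcripts is 8 bases. Neither RN7SL1 nor RN7SL2 was among the features counted, and whether any of their reads were assigned to AL627171.2 was not tested.

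AL606500.1 (ENSG00000287064) went furthest from near silence. It had 0.238 and 0 CPM under DMSO (1 UMI in all), 129 and 337 CPM under TSA (6332 UMIs), and 0.0634 and 0.0382 CPM under E6R (2 UMIs). The ratio of TSA to DMSO was 2065, with a counting interval of 370 to 81565 because the control rested on 1 UMI. AL356804.1 (ENSG00000259033), a 2-exon lincRNA at chr14:70275296-70291859, had 0 and 0.834 CPM under DMSO, 40.6 and 76.4 CPM under TSA, and 0.190 and 0.382 CPM under E6R. Both were higher in TSA replicate 2 than in TSA replicate 1, and both were under 1 CPM in every library without TSA.

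LINC00624 (ENSG00000278811) runs over chr1:147258885-147517875 on the minus strand, antisense to CHD1L over 36882 bases. It had 0.713 and 0.209 CPM under DMSO, 33.8 and 32.9 CPM under TSA, and 0.190 and 0.267 CPM under E6R. The TSA libraries nearly coincided, and the ratio of TSA to DMSO was 75.1 (29.2 to 276, from 921 and 4 UMIs). LINC02158 (chr3:42770612-42773635, plus strand) had 0.238 and 0.209 CPM under DMSO, 17.6 and 26.4 CPM under TSA, and 0 and 0.229 CPM under E6R. Only 1 UMI was counted in each DMSO library, which left its ratio at 98.5 with an interval of 27.1 to 815. AC008736.1 (chr19:32687089-32691750, minus strand) had a measurable control level of 1.43 and 1.25 CPM, had 18.9 and 23.7 CPM under TSA, and 1.46 and 0.802 CPM under E6R.

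AC104534.1, which lies wholly inside the gene ECH1 on the other strand (chr19:38820166-38823223), had 0 and 0.626 CPM under DMSO and 11.4 and 28.4 CPM under TSA. AC116317.1 had 0 and 1.25 CPM under DMSO and 14.5 and 21.2 CPM under TSA. LINC01511 (chr5:1363582-1380067, minus strand), 12723 bases from the dopamine transporter gene SLC6A3, had 0.238 and 0.626 CPM under DMSO and 18.5 and 16.2 CPM under TSA. All 3 had at most 0.267 CPM in either E6R library. AC108477.2 was the only member with no UMI in either DMSO library. It had 10.2 and 14.3 CPM under TSA (146 and 190 UMIs), which was at least 36.5-fold higher than DMSO when 3 counts over the DMSO group are taken as the limit that a count of 0 allows. It had 1 UMI in each E6R library.

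The other 7 members had mean TSA levels from 6.48 to 12.2 CPM: AC092490.1, AC027237.3, LINC02757, LINC01619, AL033523.1, AC055839.2 and AC010378.2. AC027237.3 had the smallest ratio of the 17, at 6.65 (3.97 to 12.03), with 1.90 and 1.46 CPM under DMSO and 10.5 and 11.7 CPM under TSA. AC092490.1 (chr12:8788257-8795789, plus strand) had 0.475 and 0.626 CPM under DMSO, 9.03 and 15.4 CPM under TSA, and 0.317 and 0.458 CPM under E6R. LINC02757 had 6.58 and 12.01 CPM under TSA and LINC01619 (chr12:91984976-92142914, minus strand) had 8.89 and 7.36 CPM. AL033523.1 had 7.84 and 7.36 CPM, AC055839.2 had 7.84 and 6.53 CPM and AC010378.2 had 6.58 and 6.38 CPM under TSA. In 11 of the 17 the TSA libraries lay within 1.5 times of each other, and in 11 replicate 2 was the higher.

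Over the 16 members with at least 1 DMSO UMI the median ratio was 18.8, and 21.8 when AC108477.2 enters at its bound. In DMSO, 14 of the 17 had a mean under 1 CPM and 16 stayed under 2 CPM in both libraries. Together the members took 0.0243% and 0.0350% of UMIs under DMSO, 0.341% and 0.597% under TSA, and 0.0223% and 0.0497% under E6R, most of it AL627171.2. The other 16 summed to 8.08 and 11.9 CPM under DMSO, 352 and 643 CPM under TSA, and 7.41 and 10.2 CPM under E6R.

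**Figure D1:**
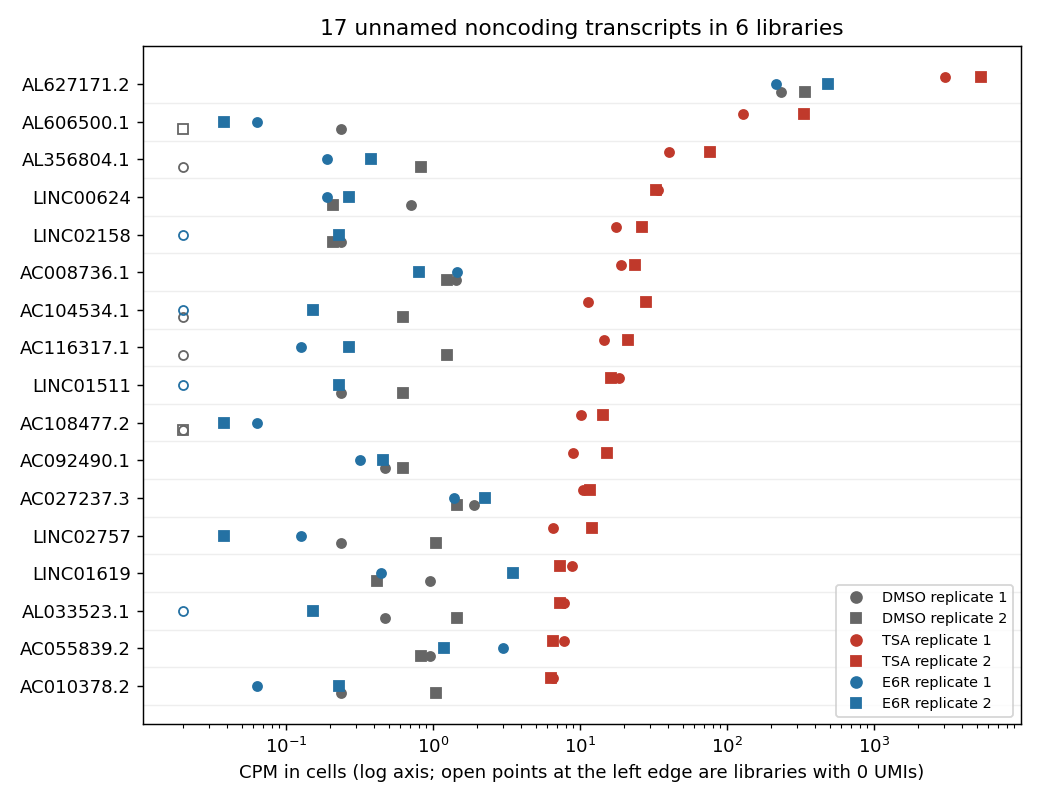
CPM of each of the 17 members (rows) in each library on a log axis; circles are replicate 1 and squares replicate 2, and open points at the left edge mark libraries with 0 UMIs. The TSA points lie right of all others by the way members were chosen, and the E6R points of most members fall among or left of the DMSO points.

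The ratio threshold cut through a continuous range. Just inside it, the lower TSA library stood 5.04 (AL033523.1), 5.52 (AC027237.3), 6.12 (AC010378.2) and 6.31 (LINC02757) times above the higher DMSO library. Just outside were AL096854.1 at 3.75 times, LINC02204 at 3.64, AC007384.1 at 3.45 and AC012640.2 at 3.42. AL096854.1, for example, had 2.14 and 1.25 CPM under DMSO and 9.17 and 8.03 CPM under TSA. A further 9 symbols met the ratio with a TSA library between 4 and 5 CPM, among them LINC02506 and LINC02569, chosen here after their values were seen.

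On CPM scaled by library totals alone, unnamed transcripts passed the same rule in the opposite direction about as often. Of 206 symbols of the naming pattern with at least 5 CPM in both TSA libraries, 17 (8.25%) stood 4 times above the highest DMSO library. Of 223 with at least 5 CPM in both DMSO libraries, 19 (8.52%) stood 4 times above the highest TSA library. Among all other symbols the shares were 226 of 10074 (2.24%) and 366 of 10160 (3.60%), and over all genes 2.36% passed the rule for TSA over DMSO. With E6R in the place of TSA, 0 of 161 unnamed symbols passed upward and 3 of 223 (1.35%) passed with DMSO as the higher group, beside 2 of 10046 (0.0199%) and 6 of 10160 (0.0591%) of the other symbols. These shares were not matched for expression level and no test was made of them. They also depend on scaling. With TMM, the scaling of the edgeR fit, 28 unnamed symbols passed for TSA over DMSO. The opposite direction was not counted on that scale, so the balance holds for total-count CPM only.

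**Figure D2:**
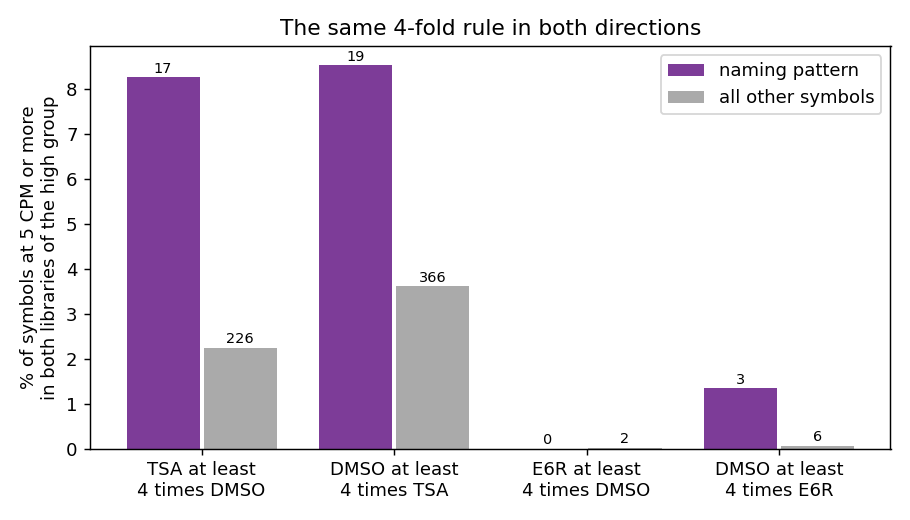
Share of symbols with at least 5 CPM in both libraries of the higher group that stood at least 4 times above the other group's highest library; purple bars are the unnamed symbols, grey bars all others, and the number above each bar is the count. The purple bars are near 8% for TSA over DMSO and for DMSO over TSA, and 0 for E6R over DMSO. CPM was scaled by library totals alone.

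In the fit across all genes (edgeR's quasi-likelihood test, Benjamini-Hochberg adjusted p under 0.05), 29.7% of the 16763 tested genes passed for TSA against DMSO, 16.2% as higher under TSA and 13.5% as lower. All 17 members entered that fit and all 17 were called higher, with adjusted p from 0.000523 to 0.0219. In all 17 both TSA libraries lay above both DMSO libraries, as in 26.5% of all tested genes. The rule used this contrast, so nothing is read from either count. Of all 2214 tested symbols of the naming pattern, 138 (6.23%) were higher and 154 (6.96%) lower. Of the named long noncoding RNAs kept for comparison, such as MALAT1, NEAT1 and MEG3, 41 of 43 were tested, 3 were higher and 11 lower.

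E6R was not part of the rule, although the DMSO libraries were, and under E6R most members lay within or below the range of the DMSO libraries. None of the 17 passed the edgeR test for E6R against DMSO (adjusted p from 0.215 to 0.906), where 0% of all 16763 genes passed. At unadjusted p under 0.05 there were 2 members, beside 17.4% of all tested genes. DESeq2 called 0 members, but its share over all genes was not counted, so nothing is read from that count. In 10 members the E6R libraries overlapped the DMSO libraries, in 5 both lay below and in 2 both lay above. Over all tested genes, E6R lay wholly below DMSO in 28.5% and wholly above in 17.4%. In 12 of the 17 the highest E6R library was under 1 CPM. By counting error alone the E6R to DMSO ratio was above 1 for AL627171.2 (1.33, interval 1.27 to 1.39), LINC01619 and AC055839.2, below 1 for AL033523.1, LINC02757 and AC010378.2, and not separable from 1 for the other 11.

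The 2 members past the unadjusted threshold were lower under E6R. AL033523.1, a 3-exon lincRNA at chr6:3594247-3624747, had 0.475 and 1.46 CPM under DMSO and 0 and 0.153 CPM under E6R, or -3.19 on the log2 scale (SE 0.97, adjusted p = 0.215). LINC02757 (chr11:76607853-76630427) had 0.238 and 1.04 CPM under DMSO and 0.127 and 0.0382 CPM under E6R, a ratio of 0.107 with a counting interval of 0.0174 to 0.502 (adjusted p = 0.229 in edgeR). Both groups rested on fewer than 10 UMIs in each of these genes. AC010378.2 and LINC01511, which had over 3 UMIs in both groups, stood at log2 fold changes of -1.86 and -1.52, and neither passed.

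At the other end, LINC01619 had 0.951 and 0.417 CPM under DMSO and 0.444 and 3.51 CPM under E6R, with 92 of its 99 E6R UMIs in replicate 2. They came from 73 of the 3946 cells there, and no cell held more than 5. Its log2 fold change for E6R against DMSO was 1.70 (SE 1.001, adjusted p = 0.411). Without E6R replicate 2 it was -0.41. AC055839.2 was 1 of the 2 members with both E6R libraries above both DMSO libraries, at 2.98 and 1.18 CPM against 0.951 and 0.834 CPM (log2 fold change 1.33, SE 0.63, adjusted p = 0.326). The other was AC108477.2, with 1 UMI in each E6R library and none under DMSO, which is within the limit that a count of 0 allows. AL627171.2 and AC027237.3 had log2 fold changes of 0.42 and 0.26 and did not pass either.

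Against TSA, the E6R level of every member was lower: in all 17 both E6R libraries lay below both TSA libraries, as in 33.4% of all tested genes. The edgeR test called 16 lower and none higher, where 38.2% of all genes passed, 19.5% as lower and 18.7% as higher. LINC01619 was the exception, at a log2 fold change of -2.18 and adjusted p = 0.0592. It passed with the replicate block (-2.45, adjusted p = 0.0141), and without E6R replicate 2 (-4.30, adjusted p = 0.00101). The TSA libraries chose the members, so this contrast too is a description. The contrasts share libraries and are not independent of each other.

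In single cells the members were scattered under TSA. To compare libraries at equal depth, each cell with at least 1000 UMIs was thinned to 1000, which left out 674 and 1450 shallower cells under DMSO, 615 and 503 under TSA, and 692 and 1718 under E6R. At least 1 UMI of the 16 members other than AL627171.2 was then found in 26.9% (24.9% to 28.97%) and 43.2% (41.4% to 45.1%) of TSA cells. The share was 1.18% and 1.01% of DMSO cells and 0.591% and 1.75% of E6R cells. Without thinning the shares were 48.6% and 65.5% under TSA, 1.83% and 1.66% under DMSO, and 3.49% and 5.35% under E6R. UMIs of 2 or more of these members were found in 5.18% and 9.72% of thinned TSA cells and in 0% of DMSO and E6R cells. The DMSO libraries are the background measured the same way, since a single cell line was profiled and no cell type known to lack these transcripts was present.

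**Figure D3:**
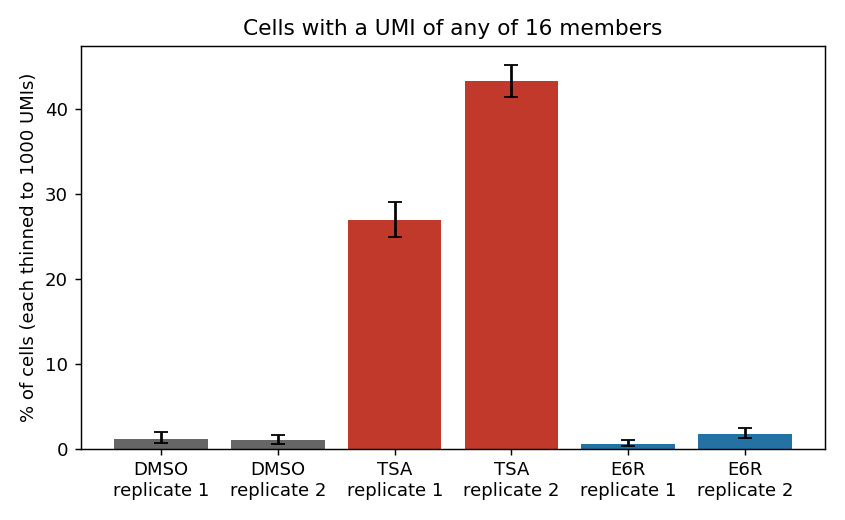
Share of cells with at least 1 UMI of the 16 members other than AL627171.2, each cell thinned to 1000 UMIs; bars are libraries and error bars exact 95% binomial intervals. The TSA bars stand at 26.9% and 43.2%, and the other 4 libraries lie under 2%.

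AL627171.2 alone was found in 56.0% and 97.1% of thinned TSA cells, in 17.2% and 22.0% of DMSO cells and in 19.6% and 31.5% of E6R cells. Its mean was 2.80 and 5.55 UMIs per thinned TSA cell. AL606500.1 was found in 11.3% and 27.2% of thinned TSA cells and AL356804.1 in 4.59% and 6.56%. The other 14 members were each found in 0.486% to 3.24% of the thinned TSA cells, which at this depth is the share in which a UMI was caught and not the share expressing the gene. Where AL606500.1 was caught, AL356804.1 was caught in 8.57% of cells (5.16% to 13.2%), and in 4.08% of the remaining cells (3.18% to 5.15%) of TSA replicate 1. In TSA replicate 2 these shares were 7.51% (5.74% to 9.62%) and 6.21% (5.20% to 7.35%). Intervals overlapped in replicate 2 and missed each other narrowly in replicate 1, whose cells differed in mitochondrial share. For LINC02158 in TSA replicate 1 a few cells carried much of the signal: 1 cell held 44 of its 252 UMIs and the 10 highest cells held 36.1%. For AC010378.2 the 10 highest cells held 46.8% and 38.8% of UMIs in the TSA libraries. For AL606500.1 they held 15.6% and 7.27%.

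Within TSA replicate 1, the level of some members differed strongly between cells of low and higher mitochondrial share, and that of others did not. AL627171.2 stood at 443 CPM (425 to 461) in the 1120 cells under 4% mitochondrial UMIs and at 4716 CPM (4671 to 4762) in the 1347 cells at or above 4%. AL606500.1 stood at 38.9 CPM (33.9 to 44.5) in the former and 186 CPM (177 to 196) in the latter. The other 15 members together stood at 217 CPM (205 to 229) and 227 CPM (217 to 237), so their summed level was about the same in both ranges. Among them AL356804.1 (22.8 and 51.9 CPM), LINC02158 (9.95 and 22.5 CPM), AC104534.1 (7.42 and 13.9 CPM), AC108477.2 (7.24 and 12.1 CPM) and LINC02757 (3.98 and 8.22 CPM) were higher in the cells at or above 4%, with intervals apart. LINC00624 (43.4 and 27.8 CPM), AC008736.1 (25.3 and 14.8 CPM), LINC01511 (24.8 and 14.5 CPM) and AC092490.1 (12.1 and 7.08 CPM) were higher in the cells under 4%, also with intervals apart. These intervals cover counting error only and leave out the clustering of UMIs in single cells. In TSA replicate 1 the 10 highest cells held 36.3% of the UMIs of AC108477.2 and 28.7% of those of AC092490.1. The 4% line was chosen after the values were seen, and 274 of the 2467 cells lay between 3% and 5%.

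TSA replicate 2 had only 84 cells under 4%, and in these AL627171.2 stood at 6074 CPM (5744 to 6419), against 5311 CPM in its other cells. AL606500.1 stood there at 384 and 336 CPM. AC104534.1 (67.3 and 27.8 CPM) and AC108477.2 (48.1 and 13.7 CPM) were higher in its cells under 4%, the reverse of TSA replicate 1. Their intervals were apart, from 14 and 10 UMIs in those cells. Among the other 15 members, the rest that differed in TSA replicate 1 had overlapping intervals here, LINC00624 for example at 28.8 and 33.0 CPM. In the DMSO libraries AL627171.2 was at 166 and 323 CPM in cells under 4% and at 283 and 342 CPM in the rest. In E6R cells under 4% it was at 208 and 475 CPM, with 1.23% and 1.01% mitochondrial UMIs. The level of AL627171.2 in the low-mitochondrial cells of TSA replicate 1 (443 CPM, at 1.23% mitochondrial UMIs) thus lay between those of the E6R libraries and nearer to DMSO than to TSA replicate 2. The other 15 members summed to 217 CPM in these cells, against 7.53 and 18.9 CPM in the DMSO cells and 7.53 and 9.76 CPM in the E6R cells under 4%. What these cells are, and whether cells of another condition were among them, was not tested.

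**Figure D4:**
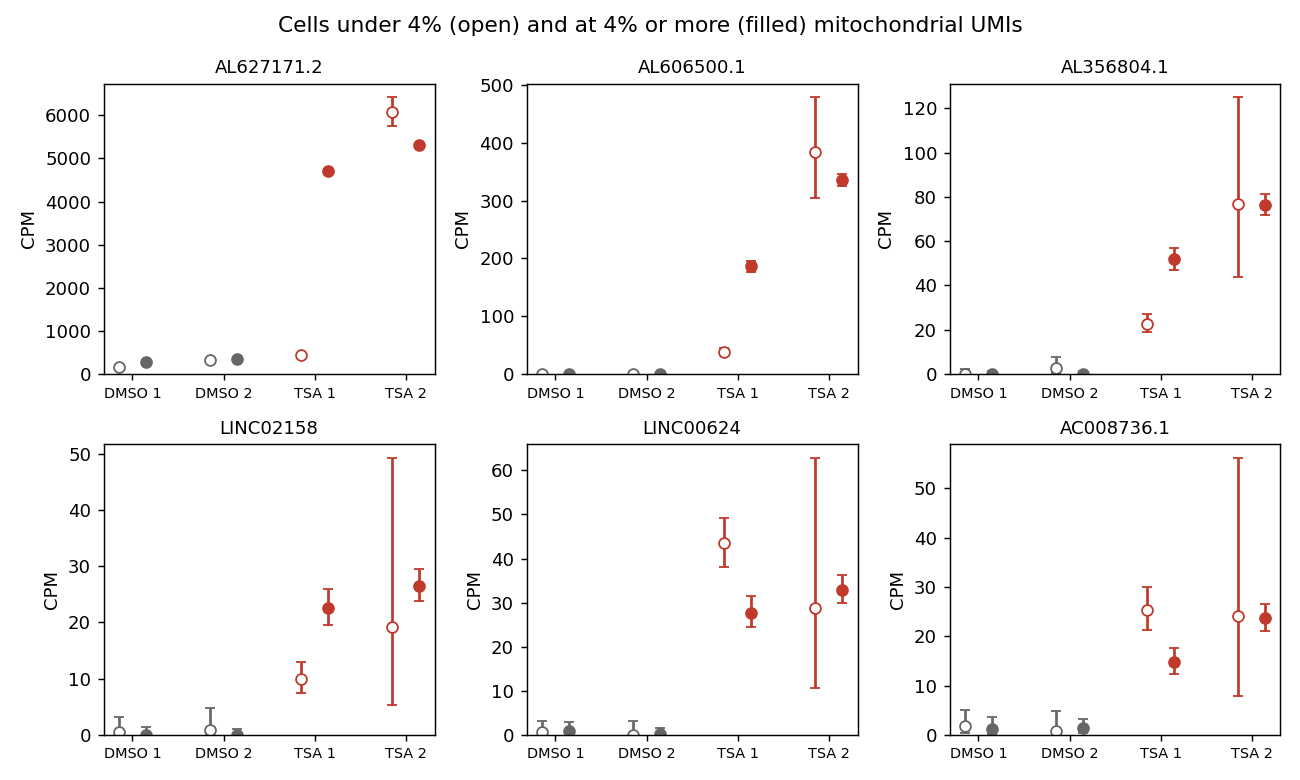
CPM of 6 members in DMSO and TSA cells with under 4% (open points) and 4% or more (filled points) mitochondrial UMIs; error bars are exact 95% Poisson intervals. In TSA replicate 1 AL627171.2 and AL606500.1 are far lower in the open points, while LINC00624 and AC008736.1 are higher there.

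The protein-coding genes beside the members were not used by the rule and could be tested. For the 12 located members, 13 genes were the nearest, overlapped the member or started within 2000 bases on the other strand, and 11 were tested. For TSA against DMSO, 1 passed as higher and 3 as lower, where 18.3% of the 13789 tested protein-coding genes were higher and 14.6% lower. That is 4 of 11 beside 32.8%. Fold changes are on the scale of the edgeR fit, on which the median of all genes was -0.01. On total counts alone it was -0.32, and KIF23, which did not pass, was negative on that scale and positive on the fitted one.

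PAQR5, which encodes a membrane progestin receptor, was the neighbour that rose. It had 2.38 and 1.04 CPM under DMSO, 18.5 and 17.3 CPM under TSA and 0.951 and 2.10 CPM under E6R, which gave 3.71 on the log2 scale for TSA against DMSO (SE 0.54, adjusted p = 0.00294). The TSA libraries lay above all others. It overlaps AC027237.3 over 10877 bases on the opposite strand, and no source used here states whether strand was used in counting, so reads of this pair may not have been told apart. The same holds for the other antisense pairs described here: ECH1 with AC104534.1, CHD1L with LINC00624 and CCDC13 with LINC02158. AC027237.3 also overlaps KIF23 over 784 bases on the opposite strand, with the starts 783 bases apart, so the same limit holds for this pair. KIF23 encodes a kinesin of the cell division midbody. KIF23 had 51.8 and 48.6 CPM under DMSO and 42.8 and 48.7 CPM under TSA (log2 fold change 0.18, SE 0.20, adjusted p = 0.524).

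NUDT19, which encodes a coenzyme A diphosphatase of peroxisomes, starts 211 bases from AC008736.1 in GENCODE and runs the other way. NUDT19 fell while AC008736.1 stood higher. It had 16.2 and 15.02 CPM under DMSO, 5.11 and 6.46 CPM under TSA, and 16.2 and 15.5 CPM under E6R, which gave -1.11 on the log2 scale (SE 0.30, adjusted p = 0.0272). The RefSeq start of NUDT19 lies closer still, and the 72 bases from the start of AC008736.1 to it are in capitals in the NUDT19 promoter, shown because the pair shares this stretch (RefSeq, GRCh38.p14, 250 bases before to 50 after the start).
NUDT19, chr19:32691571-32691870, plus strand: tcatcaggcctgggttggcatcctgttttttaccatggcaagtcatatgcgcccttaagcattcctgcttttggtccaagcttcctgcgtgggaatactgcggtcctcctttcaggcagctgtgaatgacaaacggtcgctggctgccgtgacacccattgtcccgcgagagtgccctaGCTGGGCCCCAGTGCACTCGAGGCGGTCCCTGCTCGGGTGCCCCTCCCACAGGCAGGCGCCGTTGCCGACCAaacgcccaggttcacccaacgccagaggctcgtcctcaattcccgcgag
This window held 19 CpG dinucleotides and 61% G and C, beside medians of 14 and 58.7% over all RefSeq promoters of the table. On either strand it held none of the GC box GGGCGG (in 45.0% of 35116 promoters), the E-box CACGTG (7.26%), the cyclic AMP element TGACGTCA (1.85%), the AP-1 site TGANTCA (7.71%), the TATA box TATAAA (11.5%) or the CCAAT box (34.6%).

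ECH1, a peroxisomal and mitochondrial enzyme of fatty acid oxidation within which AC104534.1 lies, also fell. It had 111 and 117 CPM under DMSO, 56.1 and 37.8 CPM under TSA, and 95.9 and 139 CPM under E6R. Its log2 fold change for TSA was -0.98 (SE 0.25, adjusted p = 0.0220). CHD1L, a chromatin remodeller opposite LINC00624, had 3.80 and 3.96 CPM under DMSO and 1.05 and 1.20 CPM under TSA (log2 fold change -1.47, SE 0.46, adjusted p = 0.0464). The TSA libraries lay below the other 4 for NUDT19, ECH1 and CHD1L. NUDT19, ECH1 and CHD1L each lost the call when any single DMSO or TSA library was left out, with adjusted p up to 0.198, 0.175 and 0.252, and PAQR5 kept it. CHD1L also missed it with DESeq2 (adjusted p = 0.0536) and NUDT19 with library sums thinned to the smallest (edgeR, adjusted p = 0.0982). With only cells under 4% mitochondrial UMIs, NUDT19 kept the call. Adjusted p in that edgeR fit was 0.333 for ECH1, 0.166 for CHD1L and 0.0693 for PAQR5. With only cells at 4% or more, 4 neighbours passed, and 3 of them had passed in the main fit.

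The other 7 tested neighbours did not pass. CCDC13, a coiled-coil gene opposite LINC02158, had 0.713 and 1.04 CPM under DMSO and 3.08 and 2.40 CPM under TSA (log2 fold change 1.92, SE 0.62, adjusted p = 0.0506). BTG1, an antiproliferative gene that overlaps LINC01619 on the same strand over 2637 bases, had 84.4 and 44.2 CPM under DMSO and 139 and 81.9 CPM under TSA. Strand cannot tell apart reads of BTG1 and LINC01619 where they overlap, and how such reads were assigned was not tested. BTG1 was higher under TSA within each replicate number, although the groups overlapped. Adjusted p was 0.0791, and with the replicate block BTG1 passed at adjusted p = 0.00189 (edgeR, log2 fold change 1.12). RIMKLB and LRRC32 had log2 fold changes of 2.08 and 1.71 (adjusted p = 0.144 and 0.237). NEMF, a factor of ribosome quality control 7973 bases from AL627171.2, stood at -0.06, and COX16, an assembly factor of cytochrome c oxidase beside AL356804.1, at -0.16. SLC6A3 and PXDC1 were too low to test. For E6R against DMSO none of the 11 passed.

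**Figure D5:**
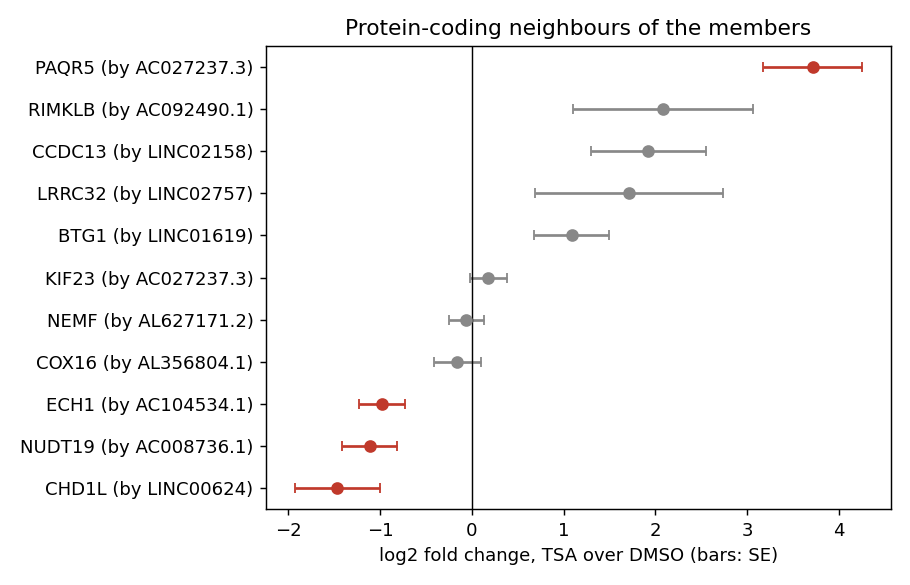
Log2 fold change of TSA over DMSO for the 11 tested protein-coding neighbours, each with the member beside it in brackets; bars are standard errors and red points passed adjusted p under 0.05 in edgeR. PAQR5 stands at 3.71, and ECH1, NUDT19 and CHD1L lie between -0.98 and -1.47.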

How the data were processed

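The data were 6 matrices of UMI counts per gene and barcode from Seq-Well S3, deposited by the authors as whole numbers that were not normalized. STARsolo 2.7.9a and GRCh38 are named in the submitters' processing notes; the annotation, strand setting and barcode rule are not given in the sources used here. A barcode was kept as a cell with 500 or more genes and no more than 20% mitochondrial UMIs, and counts were summed per library (4206366 to 26180262 UMIs). A level of 3 counts, the limit that a count of 0 allows, was 0.115 to 0.713 CPM. Doublets were not called, and an alternative dropped the 5% of cells with most UMIs.

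The sums were tested in edgeR 4.0.16 (R 4.3.3) by the quasi-likelihood F test, with TMM scaling, the filterByExpr filter, a model of group alone over all 6 libraries, and Benjamini-Hochberg adjustment over 16763 genes at 0.05. The common biological coefficient of variation was 0.288, and the procedure was tested on simulated data. An exact permutation test of 2 libraries against 2 cannot go below p = 0.333. Other scalings, filters, DESeq2 1.42.0 and left-out libraries were tried. Fitted fold changes of members with 3 or fewer UMIs in a group are not given. Libraries of the same replicate number deviated together from their group means (correlation over 7515 genes 0.242 for DMSO and TSA, 0.564 for DMSO and E6R, 0.166 for TSA and E6R), so a fit with the replicate block was an alternative. Whether the numbers pair the libraries by design was not tested.

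Positions came from GENCODE 29, which held 34616 (94.6%) of the feature identifiers, and promoters from RefSeq. The members, lists and tests were chosen with earlier results of these data known. The named members were the 12 highest under TSA, the 5 highest and 5 lowest for E6R against DMSO and the 4 nearest the ratio threshold on each side, which together took in all 17.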

Additional observations from a re-analysis of the deposited data

Results flagged for a closer look

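Barcodes that failed the cell filter entered only the alternative that kept all deposited barcodes and, in part, the one with 300 or more genes. AL627171.2 stood at 3065 CPM in the failing barcodes of TSA replicate 1 and at 6234 CPM in those of TSA replicate 2 (3062 and 5323 CPM in cells), against 393 and 399 CPM under DMSO and 434 and 831 CPM under E6R. The other 16 members summed to 324 CPM and 607 CPM in the failing barcodes of the TSA libraries, against 21.7 and 22.5 CPM under DMSO and 9.86 and 20.5 CPM under E6R. In the cells these 16 summed to 352 and 643 CPM under TSA, 8.08 and 11.9 CPM under DMSO and 7.41 and 10.2 CPM under E6R. In each DMSO and E6R library the failing barcodes thus stood above the cells of the same library. The gap was smallest in E6R replicate 1, whose failing barcodes held 23 of these UMIs. These values are listed because the TSA signal in barcodes outside the main measurement lay above that of the controls.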

How the results depend on the processing

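The rule found 17 members. It found 27 at 3 times and 11 at 8 times the highest DMSO library, 28 on TMM-scaled CPM and 26 in cells with 4% or more mitochondrial UMIs. Leaving out 1 library gave 19 to 39 (39 without DMSO replicate 2, 29 without TSA replicate 1). Of the 17, all were kept in these settings except the 8-fold one, which kept 11; the lowest share elsewhere was 13 of 17, in cells under 4%. Splits of cells at 4% were added after seeing the data. For TSA against DMSO, the contrast that chose the members, 17 passed; 9 passed in cells under 4%, where TSA replicate 2 has 84 cells, and 13 to 17 with 1 library left out. For E6R against DMSO none passed, except 1, AL033523.1, with no low-count filter (5 at unadjusted p under 0.05). The share over all genes was not counted in this or any other alternative fit. For E6R against TSA, 15 to 17 passed throughout. Of the neighbours 4 passed, 2 with library sums thinned to the smallest, 1 in cells under 4%, and 1 to 7 with 1 library left out (7 without E6R replicate 2, 1 without DMSO replicate 1 or either TSA replicate).

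With the replicate block, the pairing by replicate number left 17 members for TSA, 0 for E6R against DMSO, 17 for E6R against TSA (LINC01619 at adjusted p = 0.0141) and 5 neighbours, with BTG1 added at 0.00189. It changed no other call.

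Fold changes that missed the threshold turned sign in places, and the cause was not tested. For E6R against DMSO on the log2 scale, AL356804.1 was 0.0445 in all barcodes and 0.89 in cells at 4% or more, where AC116317.1 was 0.0016 and AC092490.1 was 0.36. LINC00624 was 0.0305 after thinning, and AC008736.1 was 0.0269 with no filter and 0.20 without the 5% of cells with most UMIs. AC027237.3 was -0.13 at 300 genes per barcode, -0.047 in all barcodes and -0.17 after thinning. With 1 library left out, AL627171.2 ran from -0.24 to 0.996, AL356804.1 from -1.20 to 5.19, LINC00624 from -1.38 to 0.40, AC008736.1 from -0.50 to 0.30, AC116317.1 from -2.30 to 4.67, AC027237.3 from -0.082 to 0.66 and LINC01619 from -0.41 to 2.60; without DMSO replicate 2, AL356804.1 and AC116317.1 have 0 DMSO UMIs, so their upper ends are no estimate of size. For TSA against DMSO, NEMF was 0.0459 and COX16 0.0256 in all barcodes, NEMF was 0.45 and KIF23 -0.36 in cells under 4%, and KIF23 was -0.14 on total counts. With 1 library left out, NEMF ran from -0.16 to 0.0126 and COX16 from -0.39 to 0.0884. Depth limits the DMSO side most: 3 counts were 0.713 and 0.626 CPM there, above the level of many members.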

Other observations

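TSA cells with at least 1000 UMIs were also parted by their AL627171.2 count, at 1 UMI per 1000 UMIs of the cell, without thinning. In TSA replicate 1, 905 cells under that line had 1.63% mitochondrial UMIs and 947 cells at or above it had 9.003%. AL606500.1 stood at 34.4 CPM (29.7 to 39.7) in the former and 190.4 CPM (181 to 200.001) in the latter. The other 15 members summed to 219.9 CPM (208 to 233) and 223 CPM (213 to 234). In TSA replicate 2 only 71 cells fell under the line, with AL606500.1 at 291 CPM (202 to 404) there and 336 CPM in the rest.

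Cells below and above the median UMI count of their library were also compared under TSA. AL627171.2 stood at 2322 and 3137 CPM in replicate 1 and at 5702 and 5256 CPM in replicate 2, and AC027237.3 at 8.43 and 10.7 CPM and at 6.99 and 12.5 CPM.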
